A study of Homo sapiens with 6 samples.

Results

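The cell-surface genes described here are 7 adhesion molecules that are widely used as markers of melanoma progression or of stem-like melanoma cells, namely NRCAM, CEACAM1, MCAM, NCAM1, L1CAM, CD44 and ALCAM. They were chosen by gene symbol from a list of 8, and they make up 7 of the 12558 genes in the authors' deposited table; the eighth, the neurotrophin receptor NGFR, is not analysed here. RNA came from IGR37, a human melanoma cell line given a CTNNB1 transgene on a piggyBac vector and kept under G418 selection, so all 6 libraries share the transgene. This transgene codes for beta-catenin, a partner of TCF/LEF transcription factors, with the nuclear localisation signal of SV40 large T antigen at its N-terminus. In the doxycycline group (3 libraries) cells had 20 ng/ml doxycycline for 24 h, and in the no-doxycycline group (3 libraries) they had none. The labels do not say whether the line is a clone or a pool, or whether the 3 libraries of a group came from separate cultures, so p-values measure the spread between these libraries, which may be technical. Reads were taken from the 3' end of transcripts.

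The deposited table holds 1 edgeR comparison and no value per library, so no value per sample can be given. Its header does not name which group is divided by which. The group on top of the fold change is called the numerator group below and the other the denominator group; higher and lower say what the numerator group did. The labels were not assigned to the groups from the values. For orientation, CTNNB1, the gene that doxycycline switches on, was higher by 3.89-fold (edgeR FDR 1.24e-08; the authors' deposited table). A transgene without the normal CTNNB1 3' end need not be counted under that name, so this does not settle the order.

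As background, adhesion molecules of the immunoglobulin superfamily bind like molecules or other partners on neighbouring cells through their outer domains, and signal or anchor to the cytoskeleton through their tails. NRCAM and L1CAM are relatives in the L1 family, which ties neuronal membranes to ankyrin. NCAM1 is the neural cell adhesion molecule, CEACAM1 a carcinoembryonic antigen relative that also restrains immune cells, MCAM a molecule first described on melanoma and shared with blood vessel walls, and ALCAM a ligand of the T cell receptor CD6. CD44 belongs to another family: it binds hyaluronan, a sugar polymer of the matrix, and is joined to actin by ezrin, radixin and moesin. NGFR binds neurotrophins together with sortilin or with Trk receptors.

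The 250 bases before the RefSeq start of transcription are shown for the 5 members that passed the test, so that the starts of the higher and the lower genes can be set side by side (GRCh38.p14, read 5' to 3' on the strand of the gene). Capitals mark matches to CTTTGAT or CTTTGAA (TCF/LEF), CACGTG or CATGTG (E-boxes of the kind MITF binds), TGAGTCA (AP-1) and ACAAAG (SOX), searched on both strands; no 2 matches overlapped in the sequences shown. The windows of NRCAM at chr7:108456437-108456686, CEACAM1 at chr19:42528482-42528731 and MCAM at chr11:119317131-119317380, all on the minus strand, belong to the higher genes.
NRCAM: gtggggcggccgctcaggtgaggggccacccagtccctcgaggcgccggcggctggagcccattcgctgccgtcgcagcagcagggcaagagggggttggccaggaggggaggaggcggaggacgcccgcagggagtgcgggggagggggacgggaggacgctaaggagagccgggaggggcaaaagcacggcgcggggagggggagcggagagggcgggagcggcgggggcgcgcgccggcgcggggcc
CEACAM1: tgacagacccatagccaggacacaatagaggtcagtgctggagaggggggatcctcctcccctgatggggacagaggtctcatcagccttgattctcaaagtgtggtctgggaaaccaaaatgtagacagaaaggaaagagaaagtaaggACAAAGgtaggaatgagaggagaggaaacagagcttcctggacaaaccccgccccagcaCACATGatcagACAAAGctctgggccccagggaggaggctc
MCAM: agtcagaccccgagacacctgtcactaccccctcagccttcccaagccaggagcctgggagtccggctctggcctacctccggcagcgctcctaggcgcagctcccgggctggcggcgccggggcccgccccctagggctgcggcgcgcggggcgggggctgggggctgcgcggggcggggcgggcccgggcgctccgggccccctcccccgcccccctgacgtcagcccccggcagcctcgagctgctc
The windows of CD44 at chr11:35138921-35139170 and ALCAM at chr3:105366659-105366908, both on the plus strand, belong to the lower genes.
CD44: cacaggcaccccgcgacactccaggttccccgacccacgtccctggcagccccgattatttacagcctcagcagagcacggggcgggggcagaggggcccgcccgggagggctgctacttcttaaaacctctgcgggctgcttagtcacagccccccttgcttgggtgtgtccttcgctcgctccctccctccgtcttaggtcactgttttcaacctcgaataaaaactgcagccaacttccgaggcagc
ALCAM: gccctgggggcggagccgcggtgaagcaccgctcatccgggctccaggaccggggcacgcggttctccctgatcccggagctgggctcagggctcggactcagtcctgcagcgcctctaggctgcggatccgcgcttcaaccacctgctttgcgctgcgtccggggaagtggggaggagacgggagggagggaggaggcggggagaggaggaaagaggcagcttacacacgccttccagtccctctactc
The CEACAM1 window held CATGTG, as its reverse complement, at bases 41 to 36 before the start and ACAAAG at bases 100 to 95 and 30 to 25; none of the 6 motifs was found in the other sequences printed. Of 35116 RefSeq windows of the same length, 9.42% held CATGTG and 13.7% ACAAAG, against 6.34% for CACGTG, 4.20% for TGAGTCA, 3.80% for CTTTGAA and 2.26% for CTTTGAT. CEACAM1 also had the least GC-rich of these windows, at 53.2% GC, compared with 78.4% for NRCAM, 79.6% for MCAM, 62.4% for CD44 and 68.8% for ALCAM. NRCAM has 2 more starts in that table, inside the gene, whose windows were poorer in GC (42.4% and 33.2%) and held CATGTG and ACAAAG in the first and TGAGTCA and ACAAAG in the second; libraries that read the 3' end cannot tell which start was used. Matches in a window describe its letters and no more.

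Among the 7 adhesion molecules, 3 were higher and 2 lower at an edgeR FDR under 0.05 in the authors' deposited table, where 24.5% of all genes were higher and 26.4% lower (50.9% in either direction). NRCAM, CEACAM1 and MCAM were the higher genes, CD44 and ALCAM the lower ones, and NCAM1 and L1CAM did not pass. Their median log2 fold change was -0.02, beside -0.01 for all genes, and the members ran from -2.76 to 7.06. The list therefore split into genes that moved in opposite directions, with NCAM1 at its middle. Spike-in RNAs, synthetic transcripts added to the samples, had a median of 0.57 for the log2 fold change that the authors' deposited table gives. With that shift taken off, 3 members were higher and 4 lower, where 11.3% of all genes were higher and 52.3% lower (63.6% in either direction). The 5 called members were also called with at least a 2-fold change, as 28.9% of all genes were, and with 4 denominator degrees of freedom, as 33% of all genes were.

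**Figure D1:**
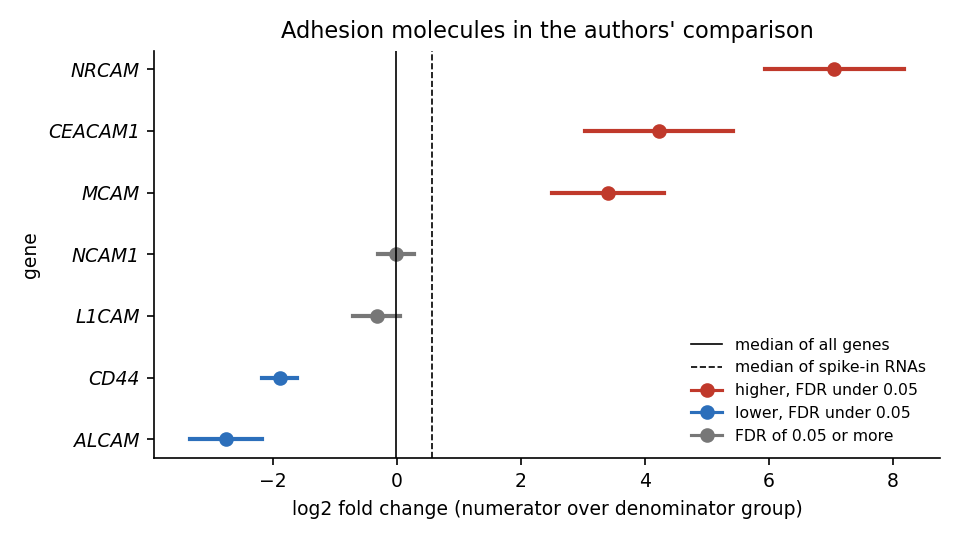
Log2 fold change of each adhesion molecule in the authors' deposited table (x axis, numerator over denominator group), with genes on the y axis; bars are approximate 95% intervals implied by the F test, and vertical lines mark the medians of all genes (-0.01) and of the spike-in RNAs (0.57). NRCAM, CEACAM1 and MCAM lie right of both lines, CD44 and ALCAM left of both, and the intervals of NCAM1 and L1CAM cross the median of all genes.

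NRCAM had the most extreme fold change of the 7. The gene, on chromosome 7 at 108147623 to 108456717 (hg38, minus strand), is known for clustering sodium channels at nodes of Ranvier. Its solved level was 17.4 CPM (counts scaled to library size) in the numerator group and 0.131 CPM in the denominator group. These levels were solved from the deposited average and fold change, on the assumption that the average is the midpoint of the 2 groups, and are approximate. The deposited fold change was 133-fold higher (log2 7.06, approximate 95% interval 5.93 to 8.19, edgeR FDR 5.79e-08), rank 101 of 12558 genes by size in the authors' deposited table. The low group held very few reads: folds of genes with no reads in 1 group step by whole reads, and on that scale NRCAM came to about 185 reads over the numerator libraries and 2 over the denominator libraries. The ratio of those reads, corrected for depth, was 165-fold with an exact 95% binomial interval of 45.0 to 1373 that covers counting error only. NRCAM was thus near the limit of detection in 1 group, and counting error alone leaves its fold uncertain over that range. Spread between libraries and the choice of scaling are not in that interval.

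CEACAM1 was next, 18.8-fold higher by the authors' deposited table (log2 4.23, approximate 95% interval 3.04 to 5.42, edgeR FDR 2.02e-05). Its solved levels were 14.8 CPM in the numerator group and 0.789 CPM in the denominator group, or about 157 and 14.4 reads. The gene lies on chromosome 19 at 42507304 to 42561234 (hg38, minus strand). Members of its family resemble one another, so reads could be split between copies by the counting, which is not described; CEACAM1 was the family's only gene with a row, and CEACAM5 and CEACAM6 are not analysed here. The next measured gene on the chromosome, PSG4, from the related pregnancy-specific glycoproteins, was lower in the authors' deposited table with no reads in the numerator group (average 2.04 CPM, edgeR FDR 0.000378).

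MCAM, on chromosome 11 at 119308529 to 119321521 (hg38, minus strand), was higher by 10.6-fold by the authors' deposited table (log2 3.41, approximate 95% interval 2.51 to 4.31, edgeR FDR 1.06e-05). The solved levels were 9.14 CPM in the numerator group and 0.859 CPM in the denominator group, or about 96.5 and 15.8 reads. Despite its use as a melanoma marker, MCAM had the lowest average of the 7 genes, 5.0 CPM, where the median gene of the table had 22.3 CPM. The 3' part of MCAM overlaps that of CBL, a ubiquitin ligase gene on the opposite strand, over 5398 bases. Whether the counting used strand is not given in the sources used here, so reads of the pair may not be fully separated. The authors' deposited table gives CBL a log2 value of 0.34 (edgeR FDR 0.117) at an average of 26.7 CPM. The approximate intervals of CEACAM1 and MCAM overlap, so their order is not separated from error.

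CD44 was the most abundant of the 7 genes, with an average of 552 CPM that ranked 269 among 12558 genes. Counts of 3' ends do not scale with transcript length. How fully the ends of each gene were counted is not known, so levels of different genes are compared only roughly. The solved level of CD44 was 234 CPM in the numerator group and 869.8 CPM in the denominator group, with a log2 value of -1.89 by the authors' deposited table (approximate 95% interval -2.17 to -1.62, edgeR FDR 2.49e-08). CD44 had the smallest approximate standard error of the members, 0.13 on the log2 scale. Of the summed solved levels of the 7 genes it made up 59.3% in the numerator group and 83.6% in the denominator group. That sum was 395 CPM in the numerator group and 1041 CPM in the denominator group, although 3 of the members were higher. GENCODE 44 lists 25 coding transcripts of CD44, on chromosome 11 at 35138882 to 35232402 (hg38, plus strand). The variable exons that distinguish its isoforms are internal, so the 3' count sums over them.

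ALCAM was lower by 6.78-fold according to the authors' deposited table (log2 -2.76, approximate 95% interval -3.34 to -2.18, edgeR FDR 1.0e-06). Its solved levels were 6.5 CPM in the numerator group and 44.1 CPM in the denominator group. The gene lies on chromosome 3 at 105366909 to 105576900 (hg38, plus strand). Its interval lies just below that of CD44, and the difference between the 2 genes was 0.87 on the log2 scale with an approximate standard error of 0.30. ALCAM and MCAM, both read as progression markers in melanoma, therefore moved in opposite directions: MCAM was the scarcer of the pair in the denominator group, whereas in the numerator group its solved level was above that of ALCAM.

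NCAM1 and L1CAM did not pass the test. NCAM1 had solved levels of 68.2 CPM in the numerator group and 68.9 CPM in the denominator group, with a log2 fold change of -0.02 (approximate 95% interval -0.31 to 0.27, edgeR FDR 0.934) in the authors' deposited table. L1CAM had 44.8 CPM in the numerator group and 56.1 CPM in the denominator group, with a log2 fold change of -0.33 (approximate 95% interval -0.70 to 0.05, edgeR FDR 0.137) in the authors' deposited table. Their averages of 68.5 and 50.4 CPM were the second and the third highest of the 7 genes, and their intervals overlap each other. As scaled by the authors, neither interval reaches a 2-fold change. Centred on the spike-in RNAs both became lower, NCAM1 at -0.59 (recomputed FDR 0.00169) and L1CAM at -0.90 (recomputed FDR 0.000486), so for these 2 genes the call depends on the scaling. NCAM1 lies on chromosome 11 at 112961275 to 113278436 (plus strand) and L1CAM on chromosome X at 153861514 to 153886173 (minus strand), both in hg38.

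**Figure D2:**
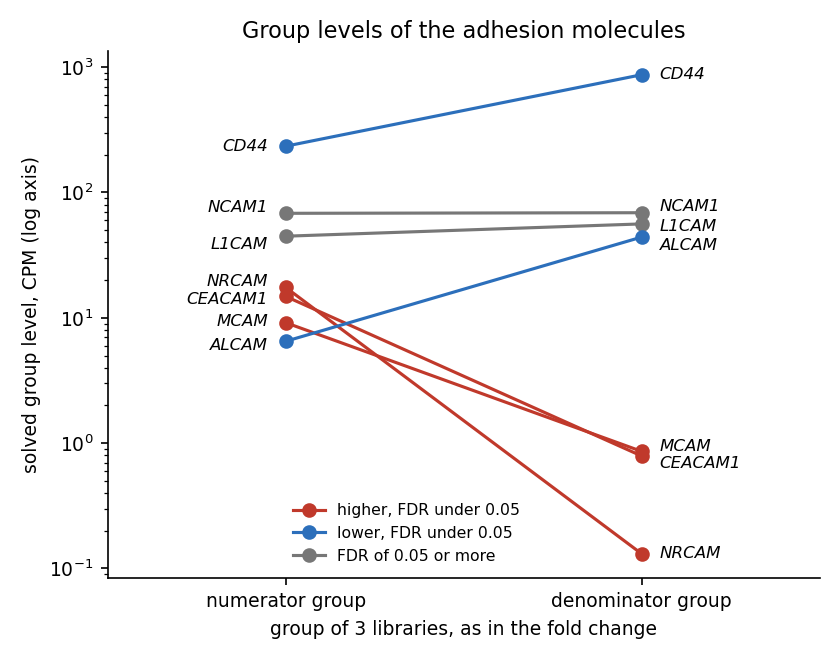
Solved level of each adhesion molecule in CPM (log y axis) in the numerator group (left) and the denominator group (right), each a group of 3 libraries; there are no error bars because the deposited table holds no value per library. CD44 and ALCAM are higher in the denominator group, NRCAM, CEACAM1 and MCAM are under 1 CPM there, and NCAM1 and L1CAM run nearly level.

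**Figure D3:**
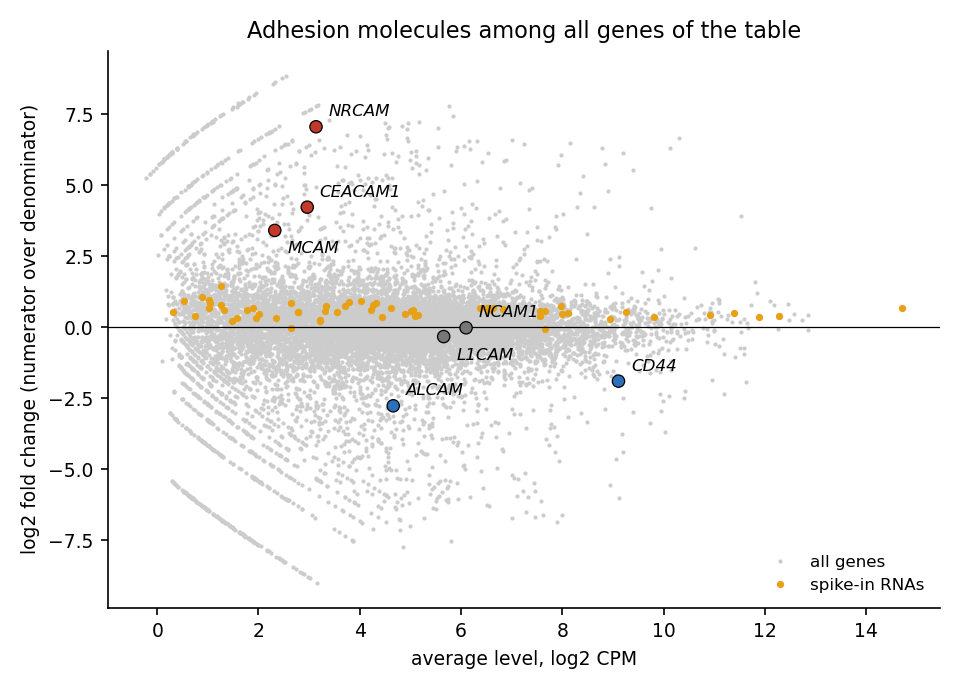
Log2 fold change (y axis) against average log2 CPM (x axis) for all genes (grey), spike-in RNAs (orange) and the 7 adhesion molecules (large points, red for higher, blue for lower and dark grey for an edgeR FDR of 0.05 or more). NRCAM, with an estimated 2 reads in the denominator group, is the uppermost of the 7, and CD44 is the most abundant of them at 9.11 log2 CPM.

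Members on 1 chromosome did not move alike. CD44, NCAM1 and MCAM all lie on chromosome 11, yet were lower, not called and higher. For each member, the 20 nearest measured genes (10 on either side) had a median log2 fold change between -0.22 around CD44 and 0.35 around ALCAM, in the authors' deposited table. Around NRCAM, 9 of 20 neighbours were higher and 3 lower, where 24.5% of all genes were higher and 26.4% lower. Their median was 0.23, against 7.06 for NRCAM itself.

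Relatives of the members in the L1 family were measured too. CHL1, the close homologue of L1, was 107-fold higher by the authors' deposited table (log2 6.74, edgeR FDR 1.94e-09), with solved levels of 31.8 CPM in the numerator group and 0.298 CPM in the denominator group; the low level is about 5 reads. NFASC, neurofascin, was 2.01-fold higher (edgeR FDR 0.00363) in the authors' deposited table, and was no longer called when centred on the spike-ins (log2 0.44, recomputed FDR 0.136). With NRCAM, 3 of the 4 L1 family genes were therefore higher as deposited, where 24.5% of all genes were, and L1CAM itself did not pass. Centred on the spike-ins, NRCAM and CHL1 stayed higher and L1CAM was called lower (log2 -0.90, recomputed FDR 0.000486). On that scale 11.3% of all genes were higher and 52.3% lower.

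Other surface adhesion molecules also split. Of 30 measured among 61 listed, 10 were higher, 12 lower and 8 not called in the authors' deposited table, where 24.5% of all genes were higher and 26.4% lower, with a median log2 fold change of -0.10. Centred on the spike-ins, 7 were higher and 17 lower, beside 11.3% and 52.3% of all genes. IGSF11 was higher, with about 105 reads in the numerator group and 2 in the denominator group (93.4-fold from the reads, exact 95% binomial interval 25.3 to 784); it is a homophilic adhesion molecule of the immunoglobulin superfamily. The tetraspanin partner IGSF8 was 8.88-fold higher (edgeR FDR 3.68e-08) and IGSF3 3.89-fold higher (edgeR FDR 1.76e-07) in the authors' deposited table. The 3 measured nectins and their relative PVR, which form junctions beside cadherins and are ligands of lymphocyte receptors, were lower: NECTIN2 (listed as PVRL2) was 2.78-fold, NECTIN1 (PVRL1) 2.27-fold, NECTIN3 (PVRL3) 2.22-fold and PVR 1.59-fold lower in the authors' deposited table, with edgeR FDRs between 5.15e-05 and 0.00108. VCAM1, the endothelial ligand of leukocyte integrins, was lower with no reads in the numerator group (average 1.26 CPM, edgeR FDR 0.00309). ICAM1 did not pass (log2 -1.19, edgeR FDR 0.127, about 10.6 reads in the numerator group and 43.4 in the denominator group), although centred on the spike-ins it did (recomputed FDR 0.0232).

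The partners of NGFR were measured even though the receptor is not analysed here. Of 22 measured genes among 31 listed for the neurotrophin axis, 6 were higher, 7 lower and 9 not called, by the authors' deposited table, and their median was -0.03 (log2). Their 13 calls among 22 are near the background, where 50.9% of all genes were called. Centred on the spike-ins 4 were higher and 12 lower, beside 11.3% and 52.3% of all genes. BDNF, the brain-derived neurotrophin, was 39.9-fold lower (edgeR FDR 3.68e-08), with solved levels of 0.660 CPM in the numerator group and 26.3 CPM in the denominator group, in the authors' deposited table. The neurotrophin-3 receptor NTRK3 was lower too (edgeR FDR 0.00101), with about 1 read in the numerator group and 37.2 in the denominator group (20.9-fold from the reads, exact 95% binomial interval 3.50 to 841). SORT1, sortilin, the partner with which NGFR binds unprocessed neurotrophins, was 6.24-fold higher (edgeR FDR 8.19e-09), at 94.4 CPM in the numerator group and 15.1 CPM in the denominator group, in the authors' deposited table. Its relatives went both ways: SORL1 was 3.51-fold higher (edgeR FDR 9.33e-05), SORCS1 was higher with no reads in the denominator group (edgeR FDR 2.54e-05), and SORCS2 was lower (edgeR FDR 1.10e-06) with about 2 reads in the numerator group and 178 in the denominator group (49.9-fold from the reads, exact 95% binomial interval 13.6 to 415). LINGO1, which joins NGFR in the receptor for myelin inhibitors, was 23.0-fold higher (edgeR FDR 3.25e-09) in the authors' deposited table, whereas the myelin inhibitor RTN4 was 1.62-fold lower (edgeR FDR 0.000236). The kinase IRAK1 was 2.49-fold lower (edgeR FDR 7.91e-07) there as well, in the authors' deposited table. NTF3 and NTRK2 are not analysed here.

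Genes of CD44 and its ligand hyaluronan, with splicing factors and an amino acid transporter tied to CD44, were listed together. Of 19 measured among 27 listed, 4 were higher, 9 lower and 6 not called in the authors' deposited table, where 24.5% of all genes were higher and 26.4% lower, with a median log2 fold change of -0.58. Of the 9 lower genes, 3 are splicing factors (TRA2A, SRSF1 and RBM38) and 1 is the transporter subunit SLC3A2. With 4 denominator degrees of freedom 4 were higher and 5 lower, where 33% of all genes were called in either direction. Centred on the spike-ins 3 were higher and 13 lower, beside 11.3% and 52.3% of all genes. HAS2, a hyaluronan synthase, was 2.62-fold higher (edgeR FDR 0.00310) and SPP1, osteopontin, a secreted CD44 ligand, 11.6-fold higher (edgeR FDR 2.28e-05) in the authors' deposited table. Centred on the spike-ins, the HAS2 call was near the threshold (log2 0.82, recomputed FDR 0.0446). UGDH, which makes a sugar precursor of hyaluronan, was 2.09-fold lower (edgeR FDR 0.000140), as was the hyaluronan receptor HMMR at 2.16-fold lower (edgeR FDR 3.31e-05), in the authors' deposited table. The hyaluronan-binding proteoglycan VCAN was lower (edgeR FDR 6.09e-05) with about 1 read in the numerator group and 71.0 in the denominator group (39.8-fold from the reads, exact 95% binomial interval 6.92 to 1594). The surface hyaluronidase CEMIP2 (listed as TMEM2) was 1.78-fold higher (edgeR FDR 0.00163) in the authors' deposited table, but not centred on the spike-ins (recomputed FDR 0.223). ESRP1, an epithelial splicing regulator known to promote inclusion of the variable exons of CD44, was 80.4-fold higher (edgeR FDR 8.93e-08) in the authors' deposited table, with about 202 reads in the numerator group and 4 in the denominator group. TRA2A, another splicing factor, was 1.85-fold lower (edgeR FDR 3.17e-05) in the authors' deposited table. CD44 isoforms themselves were not measured.

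The next list holds proteases that shed the outer parts of adhesion molecules, gamma-secretase, which cuts the stubs left behind, the TIMP protease inhibitors and the inactive rhomboids RHBDF1 and RHBDF2. Of 22 measured among 24 listed, 8 were higher and 12 lower in the authors' deposited table, with a median log2 fold change of -0.70. Over all genes of that table, 24.5% were higher and 26.4% lower (50.9% in either direction). TIMP1, TIMP2, TIMP3 and RHBDF1, which are not proteases, are 4 of the 12 lower genes. Centred on the spike-ins 3 were higher and 12 lower, where 11.3% of all genes were higher and 52.3% lower (63.6% in either direction). ADAM10, the main sheddase of CD44 and L1CAM, was 2.41-fold higher (edgeR FDR 6.59e-05), at 91.6 CPM in the numerator group and 38.0 CPM in the denominator group, in the authors' deposited table. The beta-secretase BACE2 was 5.27-fold higher (edgeR FDR 1.55e-09), while its relative BACE1 was 5.53-fold lower (edgeR FDR 4.93e-08), in the authors' deposited table. PSEN2, a catalytic subunit of gamma-secretase, was 2.13-fold higher (edgeR FDR 0.000130) in the authors' deposited table. ADAM15 was 1.59-fold higher (edgeR FDR 0.000609), a call that was lost when centred on the spike-ins (recomputed FDR 0.522). ADAM12 was 84.3-fold lower (edgeR FDR 2.97e-10), MMP16 20.5-fold lower (edgeR FDR 3.16e-08) and the protease inhibitor TIMP3 5.15-fold lower (edgeR FDR 1.32e-09) in the authors' deposited table.

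Proteins that link the members to the cytoskeleton, listed with 2 galectins, the kinases FYN and SRC, and NUMB, moved in both directions. The counts that follow include these added genes: LGALS3 and FYN are among the higher, and LGALS1, SRC and NUMB among the lower. Of 30 measured among 31 listed, 10 were higher, 14 lower and 6 not called in the authors' deposited table, where 24.5% of all genes were higher and 26.4% lower, with a median log2 fold change of -0.56. Centred on the spike-ins 9 were higher and 19 lower, beside 11.3% and 52.3% of all genes. Among the linkers of CD44, ezrin (EZR) was 4.43-fold lower (edgeR FDR 3.34e-08) and moesin (MSN) 1.75-fold lower (edgeR FDR 0.000226), and merlin (NF2), their relative and growth-restraining counterpart, was 2.67-fold lower (edgeR FDR 4.81e-06), in the authors' deposited table. Radixin (RDX) did not pass as deposited (log2 0.21, edgeR FDR 0.206); centred on the spike-ins it turned negative and passed (log2 -0.36, recomputed FDR 0.0241). The L1 family anchor ankyrin-G (ANK3) was higher (edgeR FDR 0.000221) with about 28.8 reads in the numerator group and 2 in the denominator group (25.7-fold from the reads, exact 95% binomial interval 6.54 to 224). Of its relatives, named after their values were seen, ANK2 was 6.05-fold higher (edgeR FDR 0.00258) and ANK1 19.3-fold lower (edgeR FDR 2.28e-05) in the authors' deposited table. Shootin (SHTN1), which couples L1CAM to actin flow in growth cones, was 7.29-fold higher (edgeR FDR 1.29e-09), and FYN, a kinase downstream of NCAM1, 10.6-fold higher (edgeR FDR 4.99e-07), in the authors' deposited table. EPB41 was 4.16-fold higher (edgeR FDR 8.58e-08) and vinculin (VCL) 3.72-fold lower (edgeR FDR 1.70e-06) in the authors' deposited table. Of the galectins, lectins that bind surface glycoproteins, LGALS3 was 3.69-fold higher (edgeR FDR 1.73e-06) and LGALS1 4.69-fold lower (edgeR FDR 8.10e-09) in the authors' deposited table.

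**Figure D4:**
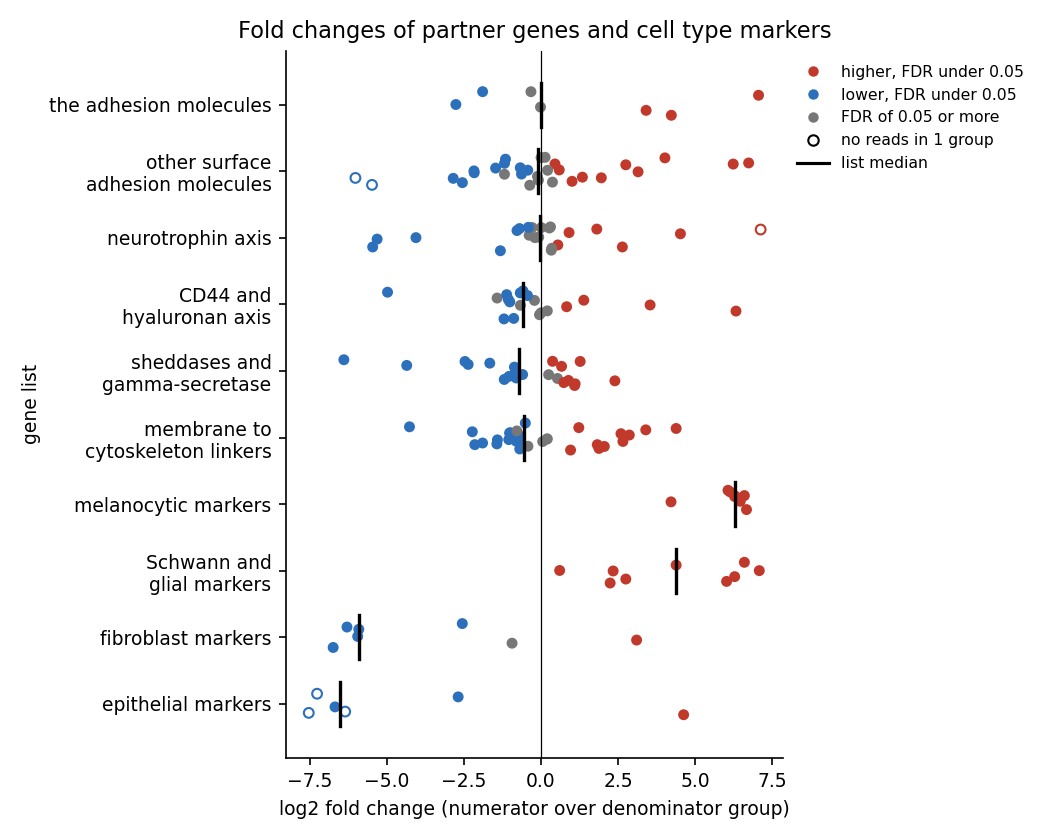
Log2 fold change (x axis, numerator over denominator group) of each measured gene in 10 lists (y axis); filled points are genes with reads in both groups, open points have no reads in 1 group, black bars are list medians, and small vertical offsets only separate points. The adhesion, partner and linker lists spread to both sides, melanocytic markers lie above 4.2 and Schwann and glial markers on the positive side.

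Markers of cell identity differed between the groups beside these results. Over all genes of the authors' deposited table, 24.5% were higher and 26.4% lower. The melanocytic markers were all measured and all 8 were higher in the authors' deposited table, with a summed solved level of 7665 CPM in the numerator group and 116 CPM in the denominator group; MITF was 18.6-fold higher (edgeR FDR 5.41e-11). Schwann and glial markers, 2 of which are also on the melanocytic list, were higher as deposited in 9 of 9 measured among 12 listed. Their sums were 1058 CPM in the numerator group and 212 CPM in the denominator group. Of these sums, PMP22 held 221 CPM in the numerator group and 145 CPM in the denominator group. PMP22 was not called when centred on the spike-ins (log2 0.04, recomputed FDR 0.848). Fibroblast markers, 7 measured of 9, were higher in 1 and lower in 5, with sums of 17.7 CPM in the numerator group and 414 CPM in the denominator group. Epithelial markers, 6 measured of 10, were higher in 1 (CDH1) and lower in 5, with sums of 17.4 CPM in the numerator group and 381 CPM in the denominator group; KRT8, KRT15 and TP63 had no reads in the numerator group. Blood and endothelial markers, 3 measured of 12, summed to 13 CPM in the numerator group and 16.0 CPM in the denominator group. Of these 3, the macrophage marker CD68 was higher (11.5 CPM in the numerator group and 5.93 CPM in the denominator group) and the endothelial PECAM1 and CDH5 were lower; CD68 was not called when centred on the spike-ins (recomputed FDR 0.218). In RNA from whole cultures, fewer cells of a type and less RNA per cell cannot be told apart. The part of these markers in the changes of the adhesion molecules was not tested.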

How the data were processed

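Transcripts of 6 IGR37 libraries, 3 with and 3 without doxycycline, were measured by sequencing of 3' ends, with libraries made from 500 ng RNA, per the labels' protocols. Per the submitters' processing notes, STAR and edgeR were used on hg38; their versions, the counting step, the annotation and any low-count filter are not given in the sources used. The authors deposited 1 table of 12617 rows (12558 genes and 59 spike-in RNAs). Per the file headers it gives, per gene, the log2 fold change, its linear form (a ratio), the average log2 CPM, the F score, the p-value and the FDR. The deposited FDR equals Benjamini-Hochberg adjustment over all rows, and a gene was called at an FDR under 0.05.

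With no counts per library, no new fit was made. The approximate standard error was the log2 fold change over the square root of F, and intervals used the 14.03 denominator degrees of freedom that F and p imply. The 206 genes at 12.03 were read as genes without reads in 1 group and get no fold. Read steps were chosen for the best match of fold minus 1 to whole steps in 59 such genes of lowest fold. They assume that the authors' edgeR step used its default prior count of 0.125 per library. After this fit 54 of the 59 lay within 0.2 of a whole step, which is not a separate check of the steps. The fit put the denominator group at 1.78 times the depth of the numerator group and gave the read numbers quoted. These are group totals, and the depth of each library is not known. Solved CPM levels take the deposited average as the midpoint of the groups. They are rougher in low genes, where libraries are weighted by depth. Alternatives were a stricter FDR, centring on spike-ins or on all genes, 4 degrees of freedom, a minimum level and a minimum fold. Centring took the median off as an exact constant. The spike-in RNAs themselves had log2 quartiles of 0.40 and 0.69, a spread that the recomputed FDRs leave out, so calls near the threshold are less sure.

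The members, the lists and the tests were chosen with earlier results of these data known. Named genes are the members, CTNNB1 and MITF, up to 4 called genes of smallest p per direction in each list, and a fixed set of ligands, receptors and relatives; neighbours on the chromosome and marker genes are named by position or list. Genes of like pattern could not be sought with 1 value per gene. Positions are from GENCODE 44 on hg38 and promoter sequences from RefSeq on GRCh38.p14, matched by symbol for 6 of the 7 members. Python 3.11.15, numpy 2.4.6, pandas 2.3.3 and scipy 1.17.1 were used, and the calculations were tested on simulated data.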

Additional observations from a re-analysis of the deposited data

How the results depend on the processing

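No paired analysis was possible because the deposited table holds no values per library; for the same reason leaving out each replicate, the DESeq2 test and its size factors were not run. The number of members called was between 5 and 7 of 7 over the alternatives. NRCAM, CEACAM1, MCAM, CD44 and ALCAM kept direction and call under each alternative run, with 4 denominator degrees of freedom included (recomputed FDRs from 0.00450 for CD44 to 0.0131 for CEACAM1). Their deposited values already met the stricter FDR, the minimum level and the minimum fold, so those alternatives could not change the calls. Only centring could have changed a direction, as every alternative starts from the deposited fold changes. Centred on the spike-ins, NCAM1 (-0.59) and L1CAM (-0.90) newly passed. Asking for at least a 2-fold change left 8 of 22 measured genes called in the neurotrophin list. It left 8 of 19 in the CD44 and hyaluronan list and 11 of 22 in the list of sheddases and gamma-secretase. Under that rule 28.9% of all genes were called, against 50.9% without the minimum fold. Other totals of calls in either direction stayed within 1.5 times, but the counts in 1 direction moved further: centred on the spike-ins, higher sheddase-list genes numbered 3 rather than 8, lower neurotrophin-list genes 12 rather than 7 and lower members 4 rather than 2. Over all genes, that centring took the share higher from 24.5% to 11.3% and the share lower from 26.4% to 52.3%. With 4 degrees of freedom, 5 rather than 9 genes of the CD44 and hyaluronan list were lower and 5 rather than 8 of the sheddase list higher. Of all genes, 33% rather than 50.9% were then called in either direction. With at least a 2-fold change, 8 rather than 14 genes of the linker list were lower, beside the fall from 50.9% to 28.9% of all genes called in either direction. At low depth the denominator level of NRCAM, about 2 reads, limits its fold.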
